A study of Homo sapiens with 6 samples.

Results

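MYC binding on human chromosomes 4, 13 and 18, which carry few genes for their length, was examined in ONS76, an established medulloblastoma cell line. The library titles and the study's ChIP methods name the cells only as ONS76. The study names its derived line with an inducible SOX2 construct separately, as i-SOX2-ONS76. MYC was recovered from formaldehyde-crosslinked, sonicated chromatin with the antibody Y69 and the DNA was sequenced (ChIP-seq), which gave 3 MYC libraries (replicates 1, 2 and 3). 3 further libraries from the same cells were made with normal IgG, a non-specific antibody, and they enter no result below on their own. All cells were grown in DMEM with serum and, per the study, SOX2 was not elevated. The study pooled immunoprecipitations from 1 chromatin batch, and it is not stated whether replicates came from separate cultures, so the spread between replicates may be technical. All peaks on these chromosomes were taken, and those of different replicates sharing at least 1 bp were joined into a place. This gave 1466 of the 27801 places of the whole genome (5.27%). Replicates 1, 2 and 3 contributed 1353, 777 and 835 peaks. Chromosomes 16 and 22, which are gene-dense, gave 1958 places and served as the comparison.

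MYC is a transcription factor that binds DNA as a dimer with MAX, preferentially at the E-box CACGTG, and it is found mostly at promoters and other open chromatin rich in CpG. In medulloblastoma, a tumour of the cerebellum, MYC drives growth by raising genes of ribosome biogenesis, translation and metabolism. Chromosomes 13 and 22 are acrocentric, with short arms made of repeats to which reads are rarely assigned.

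The label gene-poor was checked against the reference genome of another build (hg38) with the GENCODE v44 annotation, using whole-chromosome totals and no position. Per Mb of known sequence, chromosome 13 had 3.30 protein-coding genes, chromosome 18 had 3.32 and chromosome 4 had 3.99. These were the 3 lowest values among chromosomes 1 to 22 and X. Chromosome 16 had 10.5 and chromosome 22 had 11.4, against 6.86 over all 23 chromosomes. The E-box CACGTG, which reads the same on both strands, occurred 82.8 times per Mb on chromosomes 4, 13 and 18 together, 149 times per Mb on chromosomes 16 and 22, and 97.3 times per Mb over all 23. CpG dinucleotides numbered 8.43 per kb on the gene-poor and 14.8 per kb on the gene-dense chromosomes. Genes and sequence at single places are not given, because the peaks are in hg19 coordinates and 3 peaks on chromosome 4 and 28 on chromosome 13 end past the hg38 sequence.

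The lists give no read totals. An even spread of fragments over the genome would have put 7.79, 5.84 and 4.76 of them at a site in replicates 1, 2 and 3, and these values are called the genome-wide level. The level moves with depth but also with fragment length and scaling, so depth itself is unknown. Of the peaks in these lists, 5.43%, 4.62% and 4.83% lay on chromosomes 4, 13 and 18.

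The first comparison asked how densely MYC bound the gene-poor chromosomes. Places were sparse there, at 2.36 consensus places per Mb against 10.4 on chromosomes 16 and 22 and 5.91 over chromosomes 1 to 22 and X. A consensus place is one with peaks from at least 2 replicates, and the length is the span from the first to the last place. The consensus held 859 of the 1466 gene-poor places (58.6%) and 1289 of the 1958 gene-dense places (65.8%), and over the genome it held 62.4% of places. Chromosome 4 had 357 consensus places (1.87 per Mb), chromosome 13 had 214 (2.24 per Mb) and chromosome 18 had 288 (3.69 per Mb). Among the 23 chromosomes only X, at 1.40 per Mb, had fewer per Mb than chromosome 4, and chromosomes 13 and 18 followed. The consensus covered 1323 bp per Mb on chromosome 4, 1621 bp on chromosome 13 and 2896 bp on chromosome 18. It covered 7841 bp on chromosome 16, 9829 bp on chromosome 22 and 4661 bp over chromosomes 1 to 22 and X.

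The same order was seen in each replicate. Chromosome 4 had 2.92, 1.59 and 1.84 peaks per Mb in replicates 1, 2 and 3. Chromosome 13 had 3.55, 2.01 and 1.99 peaks per Mb, above chromosome 4 in 3 of 3 replicates by less than the SD between replicates. Chromosome 18 had 5.85, 3.62 and 3.77 peaks per Mb. In each replicate chromosome 18 was above the other gene-poor chromosomes, and all 3 were below chromosome 16 (13.04, 9.66 and 9.83) and chromosome 22 (17.3, 11.6 and 12.8). Together the gene-poor chromosomes had 0.229 ± 0.0284 times (SD, n = 3) the peaks per Mb of the gene-dense chromosomes. The ratio was below 1 in 3 of 3 replicates. With 3 libraries an exact two-sided sign-flip permutation test cannot give a p below 0.25, and this p was obtained for each of the 7 comparisons made between the gene-poor and the gene-dense chromosomes (Benjamini-Hochberg adjusted p = 0.25). When only summits with at least 6 times the genome-wide level of fragments were kept, the ratio of consensus densities was 0.181 instead of 0.226.

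**Figure D1:**
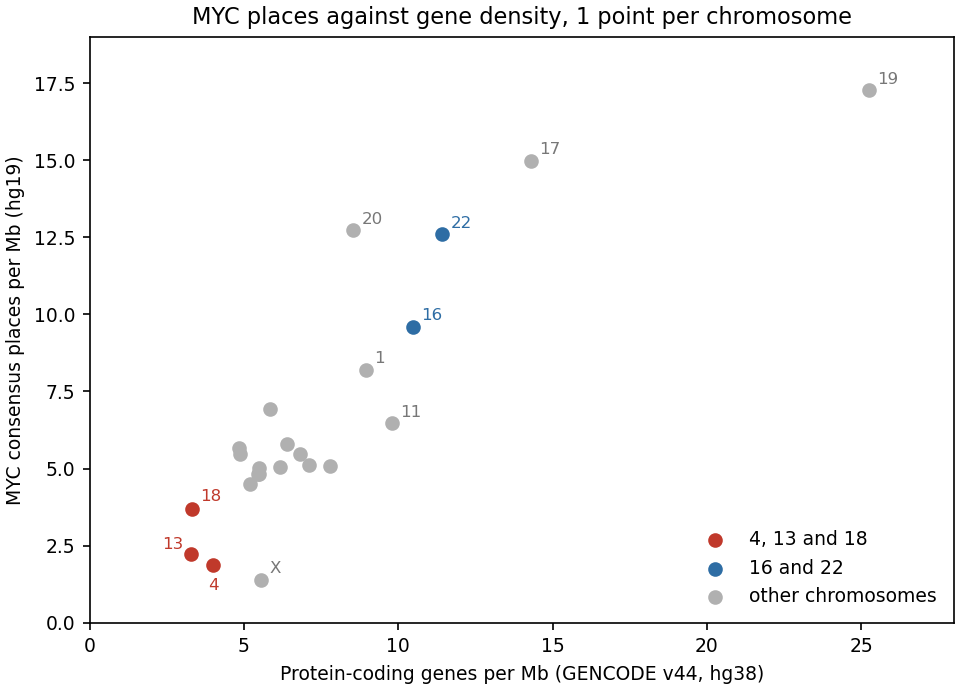
MYC consensus places per Mb of hg19 span (vertical axis) against protein-coding genes per Mb of known hg38 sequence (horizontal axis), with 1 point per chromosome for chromosomes 1 to 22 and X. Chromosomes 4, 13 and 18 (red) lie at the lower left with 1.87 to 3.69 places per Mb, and chromosomes 16 and 22 (blue) lie at 9.61 and 12.6.

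Across the 23 chromosomes, density followed gene density (Pearson's r = 0.871, Spearman's rho = 0.807), CpG density (r = 0.910, rho = 0.785), E-box density (r = 0.868, rho = 0.809) and GC content (r = 0.932, rho = 0.799). These values are descriptions over chromosomes that share libraries and base composition, and the properties also move with each other. The plot of places against genes shows chromosome 18 above chromosome 4 although chromosome 18 has fewer genes per Mb.

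The difference was smaller per gene than per Mb. The gene-poor chromosomes together carry 1346 protein-coding genes and the gene-dense ones 1304, yet the former had 63.8 consensus places per 100 coding genes and the latter 98.8. The genome as a whole had 86.9. The 3 gene-poor chromosomes were unlike each other in this measure. Chromosome 4 had 47.2 consensus places per 100 coding genes, the lowest value after X (25.3). Chromosome 13 had 66.3. Chromosome 18 had 108, above chromosome 16 (100.9) and chromosome 22 (94.9).

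Peaks per 100 coding genes were 73.7, 40.03 and 46.4 on chromosome 4 in replicates 1, 2 and 3. They were 105, 59.4 and 58.8 on chromosome 13. On chromosome 18 they were 171, 106 and 111, higher in each replicate than the values on chromosome 16 (137, 102 and 103) and chromosome 22 (131, 87.5 and 96.2). The gene-poor to gene-dense ratio was 0.746, 0.597 and 0.615 in the 3 replicates, with a mean of 0.653 ± 0.0811 (SD, n = 3). It depended on chromosomes 4 and 18. Taken from the consensus, it was 0.646 with the 3 chromosomes, 0.535 without chromosome 18 and 0.862 without chromosome 4, where the replicates no longer had 1 direction.

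Spacing was then examined as the distance between the midpoints of neighbouring consensus places. The median distance was 140 kb on chromosome 4, 132 kb on chromosome 13 and 82.4 kb on chromosome 18. It was 28.01 kb on chromosome 16, 29.03 kb on chromosome 22 and 43.3 kb over chromosomes 1 to 22 and X. The middle quartiles ran from 42.3 to 472 kb on chromosome 4, from 49.7 to 358 kb on chromosome 13 and from 28.8 to 230 kb on chromosome 18. Neighbours less than 10 kb apart made up 11.2% of the distances on the gene-poor chromosomes (96 of 856). The share was 25.5% on the gene-dense ones (328 of 1287) and 21.3% over chromosomes 1 to 22 and X. Distances over 1 Mb numbered 55 on chromosome 4 (15.4% of its distances), 20 on chromosome 13 (9.39%) and 20 on chromosome 18 (6.97%). Chromosome 16 had 12 (1.39%) and chromosome 22 had 3 (0.709%), with 3.27% over chromosomes 1 to 22 and X. Such stretches made up 70.9% of the span between the first and last consensus place of chromosome 4, 61.8% on chromosome 13 and 52.9% on chromosome 18. The share was 38.9% on chromosome 16, 14.2% on chromosome 22 and 42.7% over chromosomes 1 to 22 and X. Chromosomes 21 and 11, at 51.6% and 50.1%, were close to chromosome 18, and X was highest at 75.6%.

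In single replicates the median distance between neighbouring summits was 76.5, 122 and 114 kb on the gene-poor chromosomes and 20.8, 28.8 and 27.3 kb on the gene-dense ones. The ratio was 4.03 ± 0.309 (SD, n = 3), and the distances were shortest in replicate 1, the list with most peaks. Chromosomes 4 and 13 did not differ in a fixed direction, with 96.04 and 91.4 kb in replicate 1 and 151.9 and 152.1 kb in replicate 2.

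**Figure D2:**
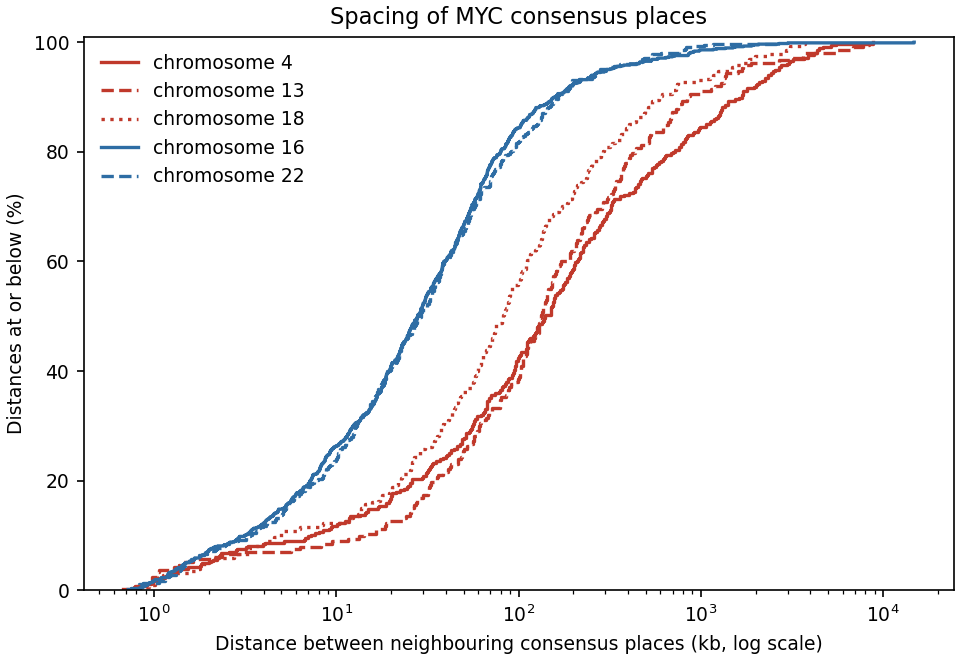
Cumulative share of distances between neighbouring MYC consensus places (vertical axis, percent) against distance (horizontal axis, kb, log scale), 1 line per chromosome. The lines of chromosomes 4, 13 and 18 reach 50% at 140, 132 and 82.4 kb, to the right of chromosomes 16 and 22 at 28.01 and 29.03 kb.

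Places were unevenly spread along the gene-poor chromosomes. On chromosome 4, the first 10 Mb held 100 of the 357 consensus places (28.01%). The 1 Mb bin with most places was there, from 1000001 to 2000000, with 23 places against a mean of 1.87 per bin. On chromosome 13, the 30 Mb from 20000001 to 50000000 held 43, 40 and 52 of the 214 consensus places in successive 10 Mb parts, and the fullest bin, from 41000001 to 42000000, held 14. On chromosome 18 the parts of 10 Mb held from 23 to 52 places, and the fullest bin, from 77000001 to 78000000, held 15. No consensus place started in 79 of 191 bins on chromosome 4 (41.4%), 38 of 97 on chromosome 13 (39.2%) and 21 of 79 on chromosome 18 (26.6%). The share of empty bins was 25.3% on chromosome 16 and 5.71% on chromosome 22. Those chromosomes had means of 9.51 and 12.1 places per bin, against 2.21 on chromosome 13 and 3.65 on chromosome 18. Fewer places per bin leave more bins empty, so this share does not measure unevenness alone. The fullest bins that together held at least 50% of the consensus places made up 12.0% of the bins of chromosome 4, 15.5% of chromosome 13 and 16.5% of chromosome 18. They made up 25.7% of the bins of chromosome 22 and also 16.5% of chromosome 16. On chromosome 16 the first and the ninth 10 Mb part held 20.3% and 20.8% of the places.

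The longest distance on chromosome 4 was 8.83 Mb, between places ending at 58030399 and starting at 66864463, and no replicate had any peak inside it. The next 2 were 5.51 Mb (30722193 to 36227008) and 5.16 Mb (134069761 to 139229627), which held 2 and 3 places found in replicate 1 alone. On chromosome 13 the longest were 8.35 Mb (79980887 to 88325810), 7.74 Mb (53227152 to 60970982) and 6.83 Mb (60971729 to 67804412). The last 2 of these are separated by a single consensus place, and no peak of any replicate lay in the 7.74 Mb stretch. Chromosome 18 had shorter ones, of 3.72 Mb (14975673 to 18691371), 3.55 Mb (61638007 to 65183857) and 3.10 Mb (39212266 to 42311613). For comparison, the longest distance on chromosome 16 was 14.8 Mb, from 31885746 to 46722310, and the next was 3.01 Mb. How much of these stretches reads can be mapped to was not tested, since the peak lists do not hold it.

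The strongest places were chosen as the 3 on each chromosome with the highest geometric mean fold enrichment among places found in all replicates. Fold enrichment divides the fragments at the summit by the local background, after 1 is added to each. The strongest of the gene-poor chromosomes was on chromosome 13 from 92000471 to 92002031. Its fold enrichment was 24.8, 18.1 and 22.2 in replicates 1, 2 and 3 (mean 21.7 ± 3.37, SD, n = 3), on 217, 123 and 127 fragments, and its summits lay within 19 bp. It stood in a sparse region, as the 10 Mb part from 90000001 to 100000000 held 11 consensus places in all. The other strong places of chromosome 13 were from 31038179 to 31039050 (16.7 ± 2.27) and from 27825272 to 27826344 (15.3 ± 2.51) (SD, n = 3).

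On chromosome 4 the strongest place was from 57301286 to 57303318, with a fold enrichment of 20.6, 16.2 and 18.2 (18.4 ± 2.19, SD, n = 3). It lay within the last Mb before the longest empty stretch of that chromosome. It was followed by 20701477 to 20702266 (16.3 ± 1.62) and 3485451 to 3487196 (16.2 ± 3.09) (SD, n = 3), whose means differed by less than the spread between replicates. On chromosome 18 the strongest were 12407591 to 12408482, with 16.7, 16.2 and 18.2 (17.1 ± 1.05), 12947238 to 12948878 (17.04 ± 1.79) and 19191770 to 19192831 (15.96 ± 0.667) (SD, n = 3), and the first 2 could not be ordered. Of these 9 places, 7 had no background above the genome-wide level in any replicate, and the exceptions were the places on chromosome 18 from 12947238 and from 19191770. The widest consensus places were from 83349946 to 83352102 on chromosome 4 (2157 bp), from 50698207 to 50700461 on chromosome 13 (2255 bp) and from 72919889 to 72922828 on chromosome 18 (2940 bp), with fold enrichments of 9.73 ± 1.79, 5.72 ± 1.08 and 7.39 ± 1.43 (SD, n = 3). Summits of the replicates lay 7 bp apart at the widest place of chromosome 13 and 1390 bp apart at that of chromosome 4.

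The next comparison asked whether peaks on gene-poor chromosomes were weaker. Median fold enrichment differed little. It was 4.21, 4.53 and 4.86 in replicates 1, 2 and 3 on the gene-poor chromosomes. On the gene-dense ones it was 4.41, 4.72 and 5.04, a ratio of 0.960 ± 0.00580 (SD, n = 3). Over chromosomes 1 to 22 and X it was 4.15, 4.49 and 4.78, below both sets in each replicate. Gene-poor peaks thus had a lower median fold than those of chromosomes 16 and 22, but not than all peaks. By chromosome the gene-poor and gene-dense values met with almost no overlap. In replicate 1 chromosome 4 (4.325) lay just above chromosome 16 (4.324) and below chromosome 22 (4.49). In replicates 2 and 3 chromosome 4 (4.68 and 4.86) equalled chromosome 22, and no gene-poor chromosome was above a gene-dense one. Chromosome 4 had 4.32, 4.68 and 4.86, chromosome 13 had 4.21, 4.39 and 4.86, and chromosome 18 had 4.04, 4.39 and 4.81. Where the background is at the genome-wide level, fold takes only the steps that whole fragments allow, so medians of different chromosomes can coincide. A fold enrichment of at least 10 was reached by 6.50%, 6.31% and 7.31% of the gene-poor peaks and by 9.50%, 7.06% and 9.58% of the gene-dense peaks, and over the genome by 7.60%, 7.24% and 8.90%. Single chromosomes overlapped by this measure in replicates 2 and 3, as chromosome 18 had 7.89%, 7.09% and 8.50% and chromosome 22 had 9.59%, 5.88% and 7.67%. The highest fold in any replicate was 20.6 on chromosome 4, 24.8 on chromosome 13 and 19.1 on chromosome 18, against 31.8 on chromosome 16 and 20.8 on chromosome 22.

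Fold has a numerator and a denominator, and the summit fragments were therefore also set against the genome-wide level, which is the same for all chromosomes of a replicate. By this measure gene-poor summits reached 4.88, 5.31 and 5.89 times the level and gene-dense summits 5.52, 5.65 and 6.31 times (ratio 0.919 ± 0.0305, SD, n = 3, below 1 in 3 of 3 replicates). Over chromosomes 1 to 22 and X the values were 5.65, 5.82 and 6.31 times, and the gene-dense summits did not exceed them in any replicate. The median summit held 38, 31 and 28 fragments on the gene-poor and 43, 33 and 30 fragments on the gene-dense chromosomes. Gene-poor peaks were also narrower, with median widths of 460, 415 and 403 bp against 532, 458 and 447 bp. With the comparison limited to peaks without raised background, the median fold was 4.32, 4.68 and 5.04 on the gene-poor chromosomes. It was 4.89, 4.97 and 5.21 on the gene-dense chromosomes and 4.44, 4.68 and 5.04 over chromosomes 1 to 22 and X. Here the gene-poor median was below that of all chromosomes in replicate 1 and equal to it in replicates 2 and 3.

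**Figure D3:**
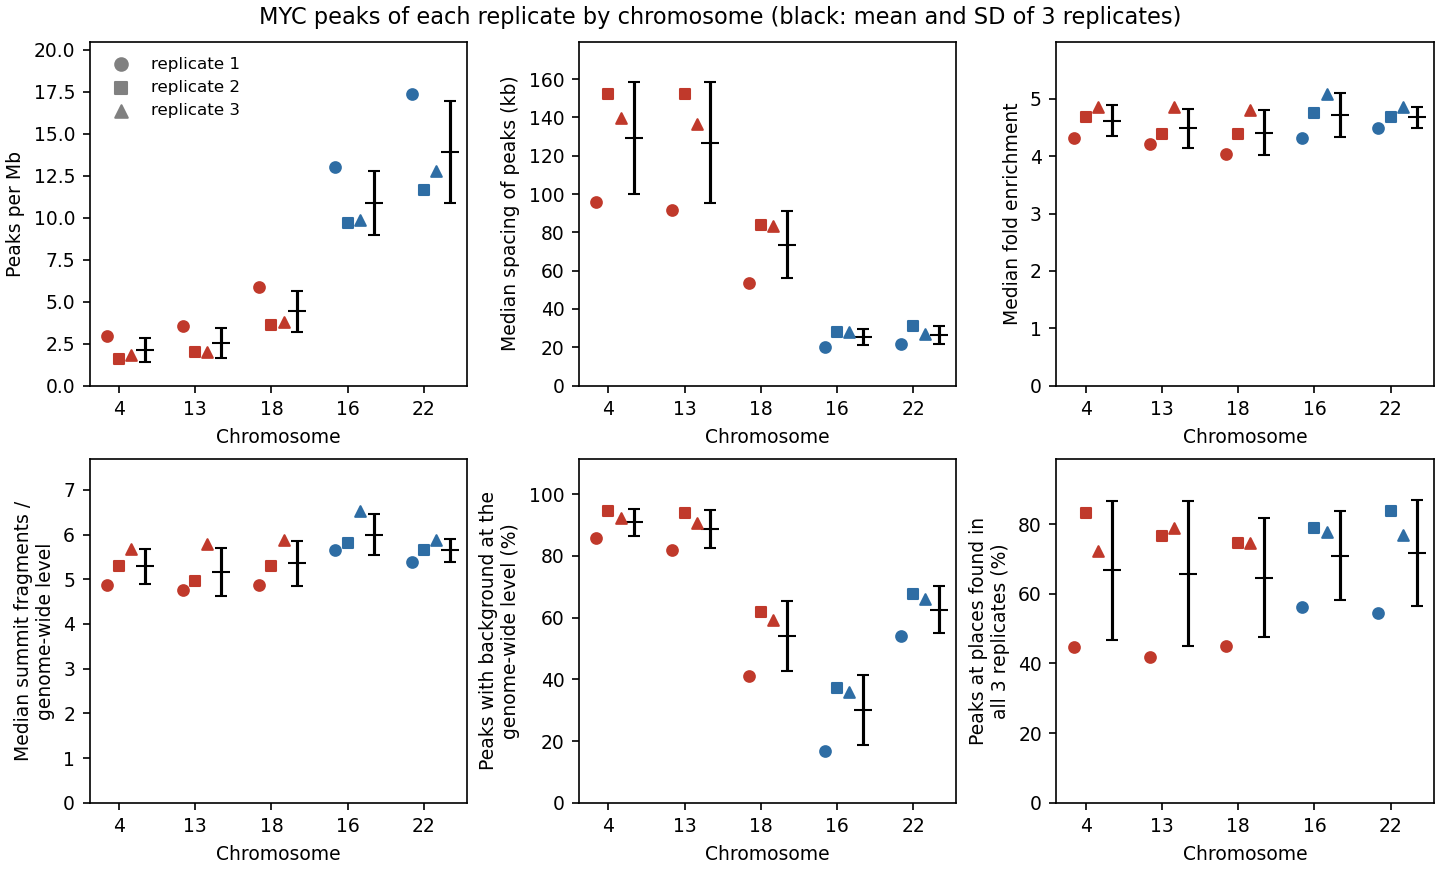
Measures of MYC peaks on chromosomes 4, 13, 18 (red), 16 and 22 (blue), 1 point per replicate, with the mean and SD of 3 replicates in black beside them. Peaks per Mb and spacing separate red from blue in every replicate. For median fold enrichment the highest red and lowest blue value nearly coincide in replicate 1 (4.325 and 4.324). They are equal in replicates 2 (4.68) and 3 (4.86).

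The local background at each peak was recovered from the deposited fold enrichment and p-value. MACS2, the peak caller, takes for it either the control signal around the peak or the genome-wide level, whichever is larger. A peak at the genome-wide level therefore had a control signal no higher than that level, and lower values cannot be seen. On chromosome 4 this held for 85.8%, 94.4% and 92.3% of peaks in replicates 1, 2 and 3 (90.8% ± 4.46, SD, n = 3). Chromosome 13 was alike, at 82.0%, 93.8% and 90.5% (88.8% ± 6.07). These were the 2 highest mean shares among the 23 chromosomes. Chromosomes 21, X and 12 followed closely, with means of 85.6%, 84.6% and 84.3%. Chromosome 12 has 7.80 protein-coding genes per Mb, above the 6.86 over all 23, so a high share was not particular to gene-poor chromosomes. The lowest means were 0.111% on chromosome 20 and 8.10% on chromosome 7. Over the genome the share was 28.9%, 40.4% and 40.0%. Chromosome 18 differed, at 41.0%, 61.7% and 59.2%, below chromosome 22 (53.9%, 67.8% and 66.05%) in each replicate and above chromosome 16 (16.9%, 37.4% and 35.8%). For the gene-poor chromosomes together the share exceeded that of the gene-dense ones by 36.9 ± 3.24 percentage points (SD, n = 3). The excess was 49.5 points without chromosome 18 and 27.7 without chromosome 4.

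A control raised in every replicate was rarer on chromosomes 4 and 13 than on chromosomes 16, 18 and 22. Places were counted on these chromosomes only, so whether this is particular to chromosomes 4 and 13 was not tested. Of the places found in all replicates, some had a background above the genome-wide level in all 3. These were 4 of 248 on chromosome 4 (1.61%), 0 of 142 on chromosome 13 and 49 of 205 on chromosome 18 (23.9%). The count was 322 of 647 on chromosome 16 (49.8%) and 69 of 315 on chromosome 22 (21.9%). A background above the level in at least 1 replicate was seen at 56 places on chromosome 4 (22.6%), 47 on chromosome 13 (33.1%) and 122 on chromosome 18 (59.5%), against 86.6% of the places on chromosome 16 and 59.4% on chromosome 22. The highest on chromosome 4, by the lowest of its 3 values, was the place from 3608584 to 3609302, at 1.53, 1.86 and 1.32 times the genome-wide level, where fold enrichment was 4.36 ± 0.873 (SD, n = 3) and the summits lay up to 366 bp apart. On chromosome 18 it was the place from 69827941 to 69828373, at 1.86, 1.34 and 1.74 times, with a fold enrichment of 4.47 ± 0.929 (SD, n = 3). On chromosome 13 each place was at the genome-wide level in at least 1 replicate, so none was highest by this rule.

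The background of chromosome 18 was not even along its length. In each of the 5 parts of 10 Mb up to 50000000, between 59.6% and 93.8% of a replicate's peaks were at the genome-wide level. In each of the 3 parts from 50000001 on, the share was between 7.32% and 38.1%, with no overlap. The split was chosen after these values were seen and has no test. Before it the share was 66.7%, 89.4% and 87.7% in replicates 1, 2 and 3, and after it 8.46%, 25.4% and 19.5%. The mean background was 1.03 ± 0.0207 times before and 1.16 ± 0.0459 times after it, relative to the genome-wide level (SD, n = 3). Other chromosomes were uneven too. Among the 10 Mb parts of chromosomes 4 and 13 with at least 20 peaks, the share over all replicates lay between 79.9% and 100%. On chromosome 13 the 3 such parts up to 50000000 had 84.2%, 81.4% and 80.5%, and those from 50000001 on had 92.2% to 98.6%. On chromosome 4 the share was lowest in the first 10 Mb, where places were also most numerous. On chromosome 16 the first 10 Mb had 78.8%, and the later parts had 14.7% to 21.2%.

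The last stretch of chromosome 18 had 4.32 consensus places per Mb against 3.34 before it. Median fold enrichment was 3.74, 4.33 and 4.33 after the split and 4.44, 4.46 and 4.86 before it. Summit fragments over the genome-wide level were 4.75, 5.48 and 5.89 after it and 5.01, 5.14 and 5.89 before it, with no fixed direction. Of its 242 places, 75 were found in all replicates (31.0%), against 130 of 278 (46.8%) before the split. The part of the background in this difference was not tested.

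The last comparison asked how far the replicates shared their peaks. On the gene-poor chromosomes 595 of 1466 places were found in all 3 replicates (40.6%) and 264 in exactly 2, against 962 of 1958 (49.1%) and 327 on the gene-dense chromosomes. Over the genome 45.0% of places were found in all 3. The share was 41.7% on chromosome 4, 40.5% on chromosome 13 and 39.4% on chromosome 18. Only X (32.8%) was below chromosome 18. Chromosome 5 (40.1%) was also below chromosomes 13 and 4, and chromosomes 10 (40.7%), 6 (41.3%) and 8 (41.6%) were below chromosome 4. Places in replicate 1 alone made up 34.2% of the gene-poor places (501) and 24.1% of the gene-dense places (471), with 27.8% over the genome. They numbered 204 of 595 on chromosome 4 (34.3%), 126 of 351 on chromosome 13 (35.9%) and 171 of 520 on chromosome 18 (32.9%). Places in replicate 2 alone numbered 13, 6 and 29 on these chromosomes and places in replicate 3 alone 21, 5 and 32. Over chromosomes 1 to 22 and X they numbered 1320 and 1409 of 27799. As shares of places, both were above those over all chromosomes on chromosome 18 and below them on chromosomes 4 and 13.

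Counted by peaks, 44.1%, 78.4% and 74.6% of the gene-poor peaks of replicates 1, 2 and 3 belonged to places present in every replicate, against 55.6%, 80.3% and 77.3% of the gene-dense peaks. Over chromosomes 1 to 22 and X the shares were 50.7%, 77.8% and 75.9%, so that the gene-poor share was below that of all peaks in replicates 1 and 3 and above it in replicate 2. The difference was -11.6, -1.95 and -2.73 percentage points, a mean of -5.42 ± 5.35 (SD, n = 3). Its size rested on replicate 1. Without that replicate, with places found in both others counted as shared, it was -2.40 points. By single chromosomes the shares of the gene-poor and the gene-dense chromosomes overlapped in replicates 2 and 3.

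Peaks with a −log10 p below 10 made up 30.9%, 34.0% and 35.3% of the gene-poor peaks, 27.0%, 29.3% and 31.0% of the gene-dense peaks, and 28.9%, 31.8% and 32.5% of all peaks. The gene-poor share was thus above and the gene-dense share below that of all peaks in each replicate. A −log10 p of 50 or more was reached by 8.87%, 6.05% and 5.15% of the gene-poor peaks against 14.3%, 7.14% and 6.996% of the gene-dense peaks. Among all peaks it was reached by 3182 of 24899, 1324 of 16809 and 1285 of 17298. The share of all peaks was above the gene-poor share in each replicate. It was below the gene-dense share in replicate 1 and above it in replicates 2 and 3. Sharing was therefore compared within bands of p. Below 10, 5.98% of the gene-poor peaks of replicate 1 belonged to places present in every replicate, against 10.5% of the gene-dense ones. In replicates 2 and 3 the order was the other way, at 54.9% against 51.6% and 51.9% against 46.4%. Among all peaks of this band the shares were 10.3%, 51.0% and 47.2% in replicates 1, 2 and 3. From 10 to 20 the shares were 35.4%, 85.2% and 79.4% on the gene-poor and 44.4%, 85.3% and 84.6% on the gene-dense chromosomes. From 20 to 30 they were 75.6%, 97.8% and 97.1% against 79.4%, 99.5% and 98.2%, lower on the gene-poor chromosomes in 3 of 3 replicates. At 50 or more every peak was shared on both. With the gene-poor peaks given the band make-up of the gene-dense ones, the difference in sharing was -5.05, 0.687 and -0.417 points, a mean of -1.59 ± 3.05 (SD, n = 3), without 1 direction in the 3 replicates (exact two-sided sign-flip permutation test, p = 0.75, where no p below 0.25 is possible). This p does not show that sharing was alike.

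**Figure D4:**
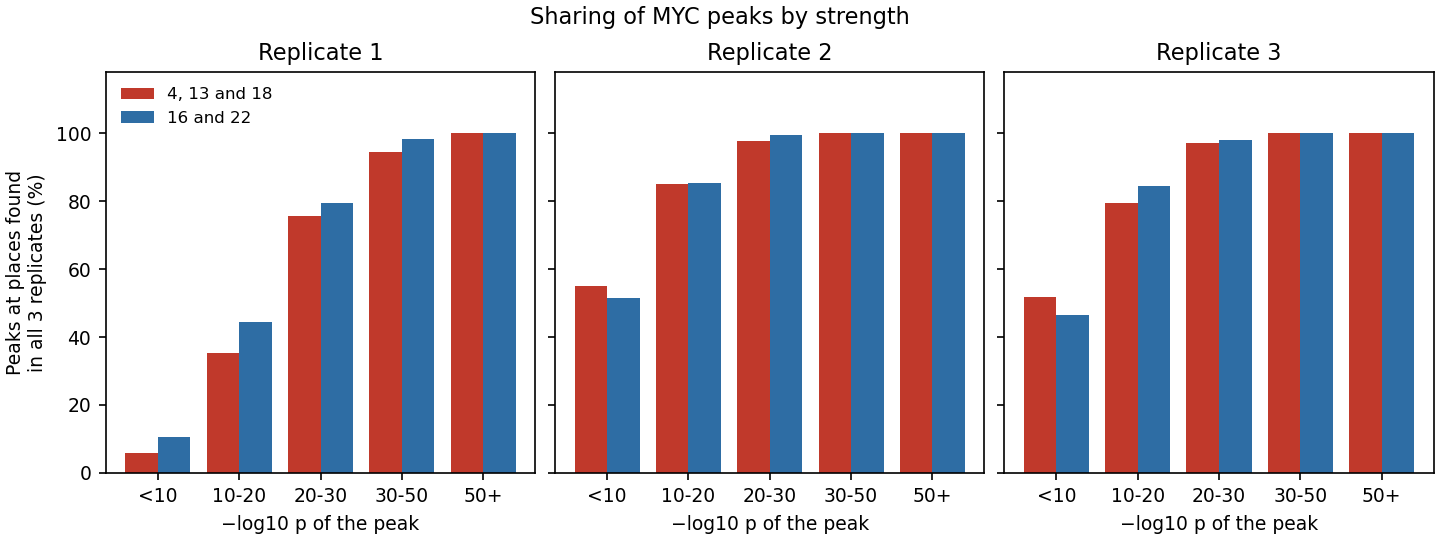
Share of peaks at places found in all 3 replicates (vertical axis, percent) by −log10 p of the peak (horizontal axis), for chromosomes 4, 13 and 18 (red) and 16 and 22 (blue), 1 panel per replicate. In the lowest band red is at 5.98% and blue at 10.5% in replicate 1, while red is above blue in replicates 2 and 3.

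Where 2 replicates both had a peak at a gene-poor place, they placed it alike. Summits lay a median of 37 bp apart for replicates 1 and 2 (705 places), 33 bp for replicates 1 and 3 (739 places) and 39 bp for replicates 2 and 3 (605 places), against 34.5, 35 and 36 bp on the gene-dense chromosomes. Fold enrichment correlated across these places with a Spearman's rho of 0.784, 0.756 and 0.767, against 0.805, 0.800 and 0.809, as a description over places that share libraries.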

How the data were processed

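ChIP-seq of MYC in ONS76 cells was analysed from 1 peak list per library (n = 3). Per the study's methods and the labels, the authors aligned reads to hg19 with Bowtie2 and called peaks in each library with MACS2 at a q-value of 0.05. Versions, the control given to MACS2 and the handling of duplicates were not given in the sources used here. Deposited lists hold a fold enrichment (a ratio, 1 being added above and below), a −log10 p-value, a −log10 q-value, the summit distance and a score, which is the integer part of 10 times the deposited −log10 q-value. The authors did not scale lists to each other, so values were compared within a replicate.

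Summit fragments and local background were recovered from fold and p-value through the Poisson relation, with a match within 0.001 for 100% of peaks. The lowest background of a list is its genome-wide level, and peaks within a relative 0.001 of it were at that level. On simulated data 100% of 15000 peaks and 100% of 6000 places were recovered. The peaks were simulated with the same Poisson relation, and the places were narrow and set about 10 kb apart. This checks the computation only, and the joining of crowded or wide peaks was not tested. Consensus places had peaks from at least 2 replicates, after the study's methods. Chromosome lengths are spans of places in hg19. Gene numbers and base composition come from hg38 and GENCODE v44 as whole-chromosome totals.

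Gene-poor and gene-dense chromosomes were compared per replicate, and the 3 differences or log2 ratios were tested with an exact two-sided sign-flip permutation test. Intervals for depth are not given, since read totals were not used. Named places were the 3 strongest found in all replicates, the 3 longest distances, the fullest 1 Mb bin, the highest background and the widest place of each chromosome. Alternatives were a q-value of at most 0.001, equal numbers of the strongest peaks (16809 per list), reciprocal overlap of 50%, a consensus of 3 replicates, other lengths, gene sets and fold definitions, and leaving out each replicate. Leaving out each chromosome and splitting chromosome 18 were added after seeing the data. The chromosomes and measures were chosen with earlier results of these data known. Python 3.11.15, NumPy 2.4.6, pandas 2.3.3 and SciPy 1.17.1 were used.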

Additional observations from a re-analysis of the deposited data

How the results depend on the processing

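The ratios below are gene-poor over gene-dense, and differences are gene-poor minus gene-dense in percentage points. The mean of all 7 results kept its direction in every alternative run, but single replicates disagreed in direction for sharing without replicate 2 or without replicate 3 (exact sign-flip permutation p = 1 for both) and without chromosome 18 (p = 0.5), and for places per gene without chromosome 4. Of 69 recomputed values, 53 moved by no more than 1 SD between replicates and 16 by more. The fold ratio was 0.951 when each list was reduced to the same number of strongest peaks. It was 0.971 with nothing added to fold and 0.931 at peaks with background at the genome-wide level. Places per gene had a ratio of 0.503 with all annotated genes, and density 0.181 with summits of at least 6 times the genome-wide level. Without chromosome 4 the ratios were 0.278 for density, 0.862 for places per gene (exact sign-flip permutation p = 0.5), 3.64 for spacing and 0.941 for fold, and the background difference was 27.7. Without chromosome 13 the background difference was 33.3. Without chromosome 18 the ratios were 0.191, 0.535, 4.81 and 0.969, and the background difference was 49.5. The causes were not tested. Leaving out a replicate gave 0.206 to 0.221 for density, 0.589 to 0.631 for places per gene, 4.04 to 4.16 for spacing, 0.958 to 0.963 for fold, 0.909 to 0.936 for summit fragments over the genome-wide level, 35.1 to 38.1 for background and -4.96 to -2.40 for sharing, which was nearest 0 without replicate 1. No paired analysis was possible because no result compares the MYC with the IgG group, whose libraries were not analysed here. Chromosomes were compared within each replicate throughout, so the replicate is the block in every result. Unknown depth limits what the absence of a peak from a replicate means, and the lists do not show control signal below the genome-wide level.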
